A study of Mus musculus with 6 samples.

Results

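Glucocorticoids act on the heart through a pair of related nuclear receptors, the glucocorticoid receptor encoded by Nr3c1 and the mineralocorticoid receptor encoded by Nr3c2. The receptors wait in the cytosol with heat shock proteins, move to the nucleus when they bind hormone, and turn on genes that carry their binding element. The genes they induce are widely used as a readout of hormone action, and in muscle they include regulators of growth, ion transport and inflammation. The 9 genes described here are these receptors, the hormone-activating enzyme Hsd11b1, and 6 known targets, namely Fkbp5, Tsc22d3, Sgk1, Zbtb16, Cdkn1a and Ddit4. They were chosen by name, and every probe set whose annotation holds exactly 1 gene symbol was taken when that symbol was one of the 9. All 9 were measured, by 22 probe sets, of 18193 genes on the array, and all 9 passed the filter on low signal that left 13178 genes. The filter used the mean over all arrays.

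Left ventricles of WT and Glut1-TG mice were profiled on an Affymetrix mouse array, with 3 arrays in each group. The sample labels call the controls wild type, which is followed here, while the design text of the series counts both groups as transgenic, so whether the controls carry a transgene of their own is not settled. All were FVB males of 11 to 12 weeks by the labels, kept on standard chow. Glut1-TG mice carry a human Glut1 glucose transporter under the alpha-myosin heavy chain promoter, which is active in cardiomyocytes, while the tissue holds all cells of the ventricle. The labels do not give the time of day of the harvest or say whether animals were littermates, and a change in the number of cells of a type cannot be told apart from a change of RNA per cell. The signal is the authors' linear value per probe set, scaled so that each array has the same trimmed mean (500), and it is not compared between genes.

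The arrays differed in a few respects that bear on these genes. The median over all probe sets was 213 on the array of Glut1-TG replicate 1, against 171 to 188 on the others. WT replicate 1 had a median of 188, but it lay far below the other WT arrays for several of the 9 genes, so the results are given with and without it. The ratio of the 3′ to the 5′ control probe set of Gapdh was 0.789 to 0.830 on all arrays, and that of beta-actin was 1.31 to 1.40 in WT and 0.995 to 1.06 in Glut1-TG hearts. The 14 cardiomyocyte markers were all above the filter. Their summed signal was 515789 to 620255 in WT and 479566 to 507777 in Glut1-TG hearts, without overlap. All 14 had log2 fold changes below 0, with a median of -0.20, beside 6199 of 13178 genes below 0 and a median of 0.017 over all genes. For 5 of the 14 all Glut1-TG arrays lay below all WT arrays, beside 8.77% of all genes. None of the 14 passed limma, a linear model test that shares the spread across genes, at an adjusted p under 0.05. The mouse Slc2a1 probe sets do not check the human transgene, and they pointed both ways, with log2 differences of 0.69, -1.19 and -2.30.

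The element that the receptors bind is an inverted repeat of the arm TGTTCT with 3 bases between the arms. Both strands were searched for the arm in the 250 bases before each RefSeq start site (GRCm38.p6), and the pair was the arm's reverse complement AGAACA, then any 3 bases, then TGTTCT. Of 32851 promoters, 16.1% held at least 1 arm and 3 held the pair. For the 9 genes, 15 start sites of 7 genes were counted. No start site of the other 2, Nr3c1 and Zbtb16, was among these 15, so their promoters are not described. At least 1 arm lay at 4 of the 15 sites, 3 of Sgk1 and 1 of Tsc22d3. A promoter of Sgk1 was 1 of the 3 with the pair. For each of the 2 genes with a match, 1 promoter is shown, for Sgk1 the one with the pair. They carry the letters of the element beside the measurements below, with the arms in capitals and in the 5′ to 3′ direction of the gene.
Sgk1, chr10:21993640-21993889, plus strand: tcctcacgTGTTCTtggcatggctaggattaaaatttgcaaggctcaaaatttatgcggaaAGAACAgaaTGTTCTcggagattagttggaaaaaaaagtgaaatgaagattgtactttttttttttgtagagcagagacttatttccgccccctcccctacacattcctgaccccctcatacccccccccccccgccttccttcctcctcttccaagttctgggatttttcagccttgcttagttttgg
Tsc22d3, chrX:140600523-140600772, minus strand: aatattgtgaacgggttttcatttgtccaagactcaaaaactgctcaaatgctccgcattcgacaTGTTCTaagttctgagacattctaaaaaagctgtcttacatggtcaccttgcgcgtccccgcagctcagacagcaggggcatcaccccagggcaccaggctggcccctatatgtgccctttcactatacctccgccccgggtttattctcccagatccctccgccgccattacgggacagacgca
In the Sgk1 window the arms begin 242, 189 and 180 bases before the start site, and the last 2 form the pair. In the Tsc22d3 window the single arm begins 185 bases before it. The windows of Hsd11b1, Nr3c2, Ddit4, Fkbp5 and Cdkn1a hold no arm in these 250 bases. A match is a description of sequence only.

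None of the 9 genes passed limma in Glut1-TG against WT hearts (0 rose, 0 fell), where 0.258% of all genes tested rose and 0.599% fell at an adjusted p under 0.05. At an unadjusted p under 0.05 there was 1 of 9, Zbtb16, beside 11.3% of all genes. No gene had its Glut1-TG arrays all above or all below its WT arrays, which 8.67% and 8.77% of all genes had. The log2 fold change was above 0 for 8 of the 9, beside 6979 of all 13178 genes. The median was 0.25 beside 0.017 over all genes, and without WT replicate 1 the 9 values ran from -0.26 to 0.39. The methods' t-test called 0 of 9 after Benjamini-Hochberg adjustment, beside 1 higher and 0 lower of all 13178 genes, so it could hardly call any. At the study's own fold and p thresholds 0 of 9 were called, beside 423 higher and 349 lower of all 13178 genes. Of the 22 probe sets, 15 had log2 fold changes above 0 and 7 below. When each was tested on its own, 0 of the 22 passed, beside 85 of all 34945.

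**Figure D1:**
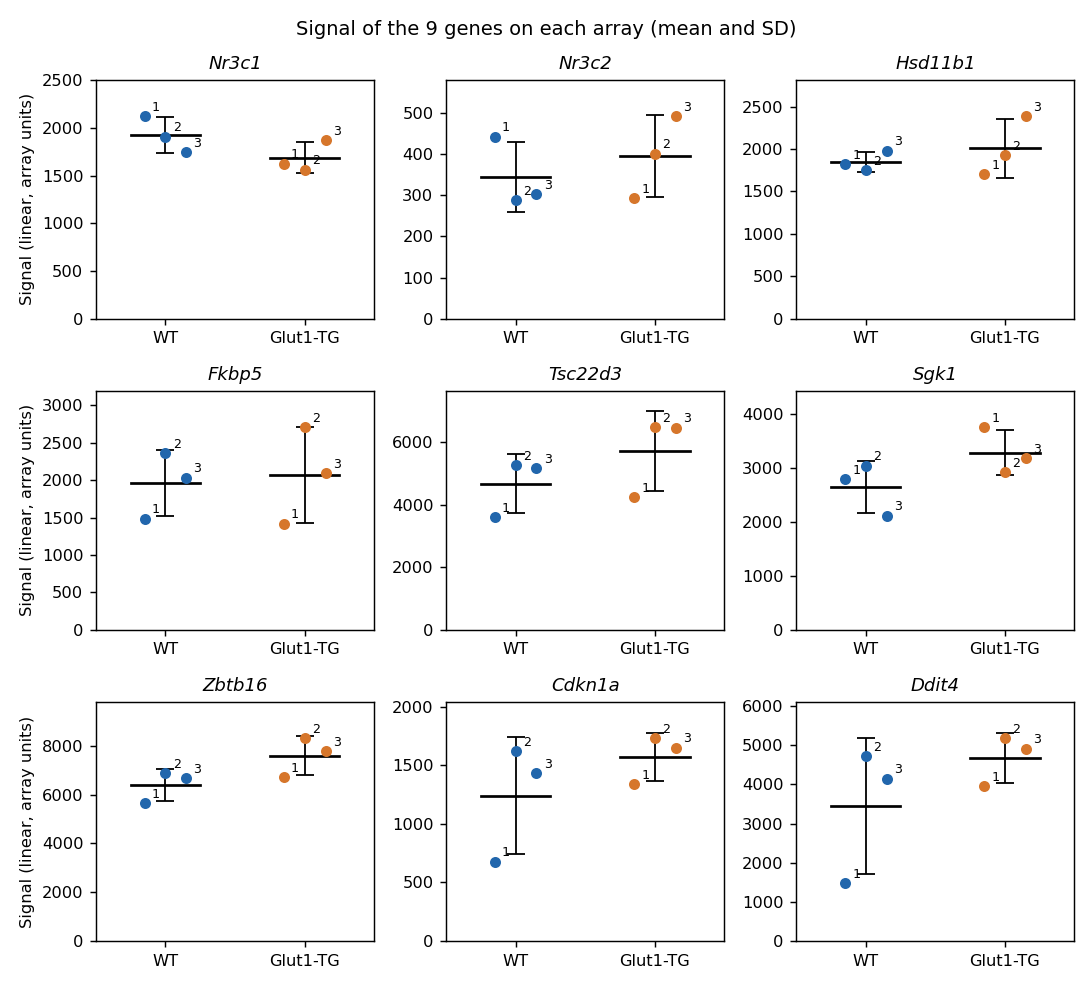
Signal on each array (vertical axis, linear, from 0) of the 9 genes by group, with the replicate number beside each point, the mean as a line and the SD as bars (n = 3). The WT and Glut1-TG points overlap for all 9 genes, and WT replicate 1 is the lowest of the 6 points for Tsc22d3, Zbtb16, Cdkn1a and Ddit4.

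Neither receptor passed limma, and the interval was narrow for Nr3c1 and wide for Nr3c2. Nr3c1 had signals of 2124, 1910 and 1748 in WT replicates 1 to 3 and 1626, 1564 and 1873 in Glut1-TG replicates 1 to 3. WT replicate 1 was the highest and Glut1-TG replicate 3 lay among the WT arrays, so the groups overlapped. The means were 1927 ± 189 (SD, n = 3) and 1688 ± 164 (SD, n = 3), a log2 fold change of -0.19 (standard error, SE, of 0.11, 95% interval -0.45 to 0.062, adjusted p = 0.57 from limma). In fold terms the interval ran from 0.735 to 1.04.
Nr3c1 has 5 further probe sets. Those of mean signal 1743, 544 and 372 had log2 fold changes of -0.17, -0.33 and -0.20, and that of 396 had 0.20. The sixth, at a mean signal of 65.9, lies under the filter's signal of 115 and had 1.12 with an SE of 0.77. None of the 6 passed.
Nr3c2, the receptor that also binds aldosterone, was read by 1 probe set with 443, 288 and 302 in WT and 292, 401 and 493 in Glut1-TG hearts. The highest WT array was replicate 1 and the lowest Glut1-TG array was replicate 1, and the groups overlapped. The log2 fold change was 0.19 (SE 0.26, 95% interval -0.39 to 0.78, adjusted p = 0.83), or 0.763 to 1.72 in fold terms. It was 0.39 (SE 0.27, adjusted p = 0.67) without WT replicate 1 and 0.59 (adjusted p = 0.38) without both arrays numbered 1.
Hsd11b1, the reductase that regenerates active hormone from its inert 11-keto form, had signals of 1821, 1750 and 1978 in WT and 1705, 1930 and 2388 in Glut1-TG hearts. Glut1-TG replicate 3 was the highest and Glut1-TG replicate 1 the lowest of the 6 arrays, so the WT arrays lay within the Glut1-TG range. The means of 1850 ± 117 and 2008 ± 348 (SD, n = 3 each) gave a log2 fold change of 0.11 (SE 0.13, 95% interval -0.18 to 0.39, adjusted p = 0.81), and without Glut1-TG replicate 3 it was -0.026.

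Among the 6 targets, replicate 1 was the lowest WT array for all but Sgk1. Ddit4 encodes REDD1, which restrains mTORC1 and is induced by hormone, low oxygen and other stress. Its signals were 1468, 4729 and 4144 in WT and 3962, 5177 and 4918 in Glut1-TG hearts. WT replicate 1 stood alone at the bottom, and the other 5 arrays lay within 3962 to 5177. The means were 3447 ± 1738 and 4686 ± 640 (SD, n = 3 each), which is 0.60 on the log2 scale (SE 0.36, 95% interval -0.20 to 1.40, adjusted p = 0.57). Without WT replicate 1 the difference was 0.07 (SE 0.13, 95% interval -0.23 to 0.37, adjusted p = 0.88).
Cdkn1a, the cell cycle inhibitor p21 and also a target of p53, showed the same array at the bottom. Its main probe set had 676, 1618 and 1431 in WT and 1337, 1730 and 1650 in Glut1-TG hearts. Its second had 67.3, 539 and 530 in WT and 414, 552 and 473 in Glut1-TG hearts. In both, WT replicate 1 was the lowest of the 6 arrays and the other 5 overlapped. On the log2 scale the main probe set differed by 0.43 (SE 0.28, adjusted p = 0.61), and 0.04 (SE 0.14, adjusted p = 0.95) without WT replicate 1.
Tsc22d3 encodes GILZ, a leucine zipper protein that carries part of the anti-inflammatory action of the hormone. Its brightest probe set had 3597, 5256 and 5164 in WT and 4236, 6468 and 6454 in Glut1-TG hearts. In each group replicate 1 was the lowest, and Glut1-TG replicate 1 lay below WT replicates 2 and 3. The log2 fold change was 0.29 (SE 0.19, adjusted p = 0.61), and 0.11 without WT replicate 1. A probe set of mean signal 3248 had the same order of replicates in WT, with 2340, 3643 and 3162, and replicate 1 was again the lowest in Glut1-TG hearts with 2866, 3972 and 3827. The others, of mean signal 938 and 252, did not have it, and their log2 fold changes were 0.06 and 0.23. The former has a name ending in _x_at, which marks probes that can read related transcripts.

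Fkbp5 encodes the cochaperone FKBP51, which is induced by the receptor and in turn lowers its affinity for hormone. It had 1484, 2358 and 2034 in WT and 1416, 2708 and 2092 in Glut1-TG hearts. Replicate 1 was the lowest array of each group, and the 2 groups ran over nearly the same range. The log2 fold change was 0.06 (SE 0.23, 95% interval -0.46 to 0.57, adjusted p = 0.95), and it turned to -0.13 without WT replicate 1. A second probe set had 533, 1038 and 1019 in WT and 429, 1264 and 1027 in Glut1-TG hearts, with the same order of replicates and a log2 fold change of -0.0052. The third, of mean signal 20.4, lies far under the filter.
Zbtb16 encodes PLZF, a transcriptional repressor of the BTB zinc finger family, and was the gene with an unadjusted p under 0.05. Its signals were 5643, 6862 and 6665 in WT and 6714, 8299 and 7768 in Glut1-TG hearts. Replicate 1 was the lowest of each group, and Glut1-TG replicate 1 lay between WT replicates 2 and 3. Glut1-TG minus WT was 0.25 on the log2 scale (SE 0.11, 95% interval 0.0086 to 0.49, adjusted p = 0.43), and 0.16 (adjusted p = 0.65) without WT replicate 1. A probe set whose name ends in _x_at had 1787, 2994 and 2796 in WT and 1627, 2974 and 2547 in Glut1-TG hearts, with replicate 1 again the lowest of each group (log2 fold change -0.09). The remaining one, of mean signal 680, did not have replicate 1 lowest in either group. It had 600, 785 and 562 in WT and 855, 535 and 814 in Glut1-TG hearts (log2 fold change 0.16).
Sgk1 encodes a kinase that controls ion channels and transporters and is induced through both receptors. Its signals were 2793, 3044 and 2113 in WT and 3757, 2928 and 3181 in Glut1-TG hearts. Here the lowest array was WT replicate 3 and the highest was Glut1-TG replicate 1, and Glut1-TG replicate 2 lay below WT replicate 2. The groups differed by 0.32 on the log2 scale (SE 0.15, 95% interval -0.0037 to 0.64, adjusted p = 0.45), and 0.37 (adjusted p = 0.52) without WT replicate 1. Of the several start sites of Sgk1, 1 has the inverted pair shown above. Which start site these hearts used was not tested.

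**Figure D2:**
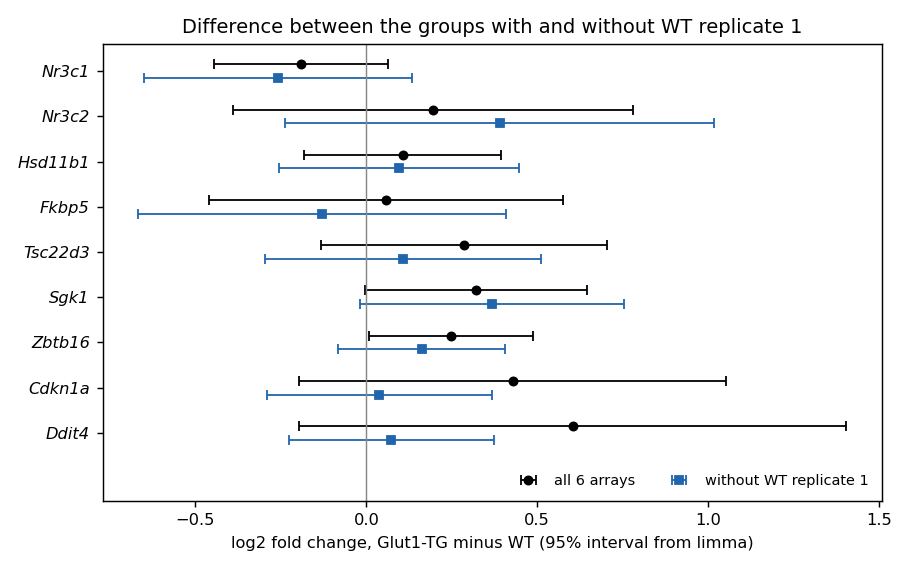
Difference between Glut1-TG and WT hearts in log2 signal (horizontal axis) for the 9 genes with the 95% interval from limma, over all 6 arrays (black circles) and without WT replicate 1 (blue squares). Ddit4 moves from 0.60 to 0.07 and Cdkn1a from 0.43 to 0.04, and none of the 9 passed limma in either case.

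The spread within groups was described in the same way. WT replicate 1 was the lowest of the 6 arrays for 4 of the 9 genes (Tsc22d3, Zbtb16, Cdkn1a and Ddit4), beside 14.9% of all genes tested. It lay at least 1.5-fold below both other WT arrays for 2 of the 9 (Cdkn1a and Ddit4), beside 3.78% of all genes. The geometric mean of WT replicates 2 and 3 was 3.01 times WT replicate 1 for Ddit4, 2.25 times for Cdkn1a, 1.48 times for Fkbp5 and 1.45 times for Tsc22d3. This ratio was larger in 0.964%, 1.66%, 5.77% and 6.29% of all genes, in the same order. It was 0.860 for Nr3c1, 0.666 for Nr3c2 and 0.908 for Sgk1, so that WT replicate 1 was not low for the receptors or for Sgk1.
In Glut1-TG hearts, replicate 1 lay at least 1.5-fold below both other arrays for 1 of the 9 genes, Tsc22d3, beside 5.54% of all genes. The matching ratio there was 1.68 for Fkbp5, 1.53 for Tsc22d3, 1.52 for Nr3c2, 1.27 for Ddit4 and 1.26 for Cdkn1a. The residual SD on the log2 scale was 0.67 for Ddit4 and 0.50 for Cdkn1a, larger than that of 92.5% and 85.5% of all genes, and 0.14 for Nr3c1, larger than that of 25.2%. These genes were picked out after their values were seen, so the counts describe these arrays and carry no test. The labels do not pair the arrays numbered 1, and their deviations from the group means had a correlation of 0.08 over all genes.

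**Figure D3:**
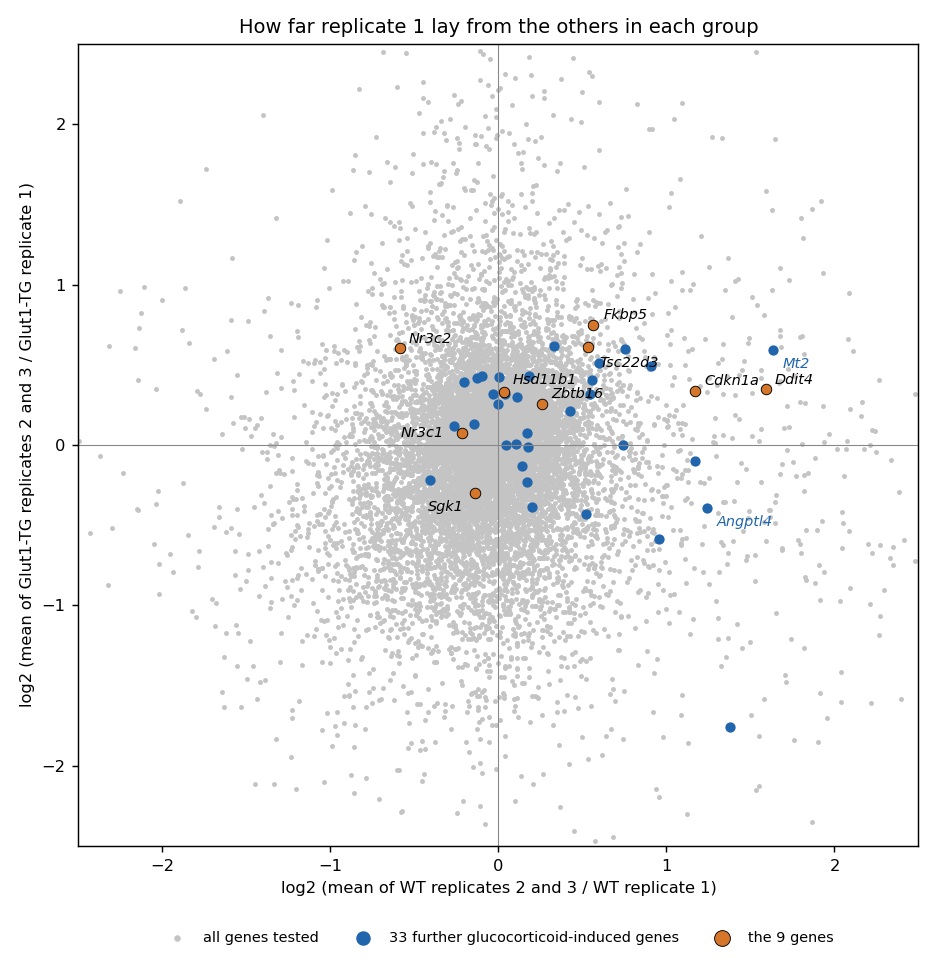
Log2 ratio of the geometric mean of replicates 2 and 3 to replicate 1 within WT (horizontal axis) and within Glut1-TG hearts (vertical axis), for all genes tested (grey, 44 of them beyond the axes), 33 further glucocorticoid-induced genes (blue) and the 9 genes (orange). Ddit4, Cdkn1a and Mt2 lie to the right, where WT replicate 1 was low, and Nr3c1 and Sgk1 lie left of 0.

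A wider set of 33 genes known to be induced by glucocorticoids in some tissue was measured in full. By limma 1 rose, 2 fell and 30 did not pass, with a median log2 fold change of 0.04. Ptgds, the prostaglandin D synthase that makes lipid mediators in the heart, had 24789, 23193 and 26397 in WT and 14696, 18104 and 17061 in Glut1-TG hearts. The groups did not overlap, and Ptgds fell by 0.58 (log2 scale, SE 0.10, adjusted p = 0.031). Klf15, a Krüppel-like factor that the receptor induces directly, had 2096, 2225 and 2106 in WT and 1510, 1534 and 1488 in Glut1-TG hearts. It fell by 0.50 (SE 0.09, adjusted p = 0.039). The paper also reports lower Klf15 in Glut1-TG hearts by qRT-PCR and, for the protein, by immunoblot. The reason for the difference in size was not tested. Gadd45b, a stress-induced regulator of MAP kinase signalling, had 699, 648 and 722 in WT and 997, 1225 and 1265 in Glut1-TG hearts. Its arrays did not overlap either, and it rose by 0.75 (SE 0.13, adjusted p = 0.041). Centred on the cardiomyocyte markers, 2 of the 33 rose and 0 fell. That scaling, which moves the median of all genes to 0.21, left Klf15 at -0.31 (adjusted p = 0.23) and Ptgds at -0.38 (adjusted p = 0.072). Both stayed below 0 and did not pass, so the 2 calls, though not the sign, depended on the scaling.
The calls were not firm. That of Klf15 ended without any 1 array (adjusted p = 0.058 to 0.19), that of Ptgds without any 1 array other than Glut1-TG replicate 2 (0.050 to 0.16), and that of Gadd45b without any 1 array other than Glut1-TG replicate 1 (0.13 to 0.17). When the probe sets of Gadd45b were averaged, its log2 fold change was 0.49 (adjusted p = 0.28). With the replicate number as a block all 3 calls ended (adjusted p = 0.087, 0.089 and 0.076 for Klf15, Ptgds and Gadd45b). They also ended with eBayes without an intensity trend (0.24, 0.27 and 0.21) and by the methods' t-test after adjustment (0.10, 0.27 and 0.23). Among those that did not pass, Pdk4, the kinase that shuts off pyruvate dehydrogenase, had 26247, 29434 and 29727 in WT and 34390, 35868 and 36629 in Glut1-TG hearts, without overlap (log2 fold change 0.33, adjusted p = 0.15).

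The same WT array was low for many genes of this wider set. WT replicate 1 was the lowest of the 6 arrays for 13 of the 33 genes and at least 1.5-fold below both other WT arrays for 8 (Mt2, Irs2, Angptl4, Lcn2, Rasd1, Arrdc2, Fam107a and Cebpd), against 14.9% and 3.78% of all genes tested. Mt2, a metallothionein that binds zinc, had 2072, 6014 and 6904 in WT and 3421, 4778 and 5580 in Glut1-TG hearts. Replicate 1 was the lowest of each group, and the log2 fold change was 0.03 (SE 0.38, adjusted p = 0.99). Angptl4, an inhibitor of lipoprotein lipase that also responds to fatty acids, had 640, 1777 and 1291 in WT and 2641, 1664 and 2423 in Glut1-TG hearts (log2 fold change 0.95, adjusted p = 0.32). Its Glut1-TG replicate 1 was the highest array, unlike that of Mt2. Per1, a clock gene with its own receptor element, had 1503, 1643 and 1736 in WT and 1869, 1663 and 1529 in Glut1-TG hearts, a far smaller range.
Lists for other inputs of these genes were read in the same way. The count of genes for which WT replicate 1 was at least 1.5-fold below both other WT arrays was 0 of 11 for p53 targets, 0 of 11 for ATF4 and CHOP stress genes, 0 of 12 for hypoxia-induced genes and 0 of 15 for immediate early genes. Lists this short can hold none at the share of 3.78% over all genes. WT replicate 1 was the lowest of the 6 arrays for 3, 2, 1 and 0 genes of these lists, in the same order, beside 14.9% of all genes. For 13 clock genes, a list drawn up with the values in view, the count at least 1.5-fold below was 1, Cry2. Dbp, a clock output gene, had 3270, 2133 and 2905 in WT and 2187, 2211 and 1437 in Glut1-TG hearts. The clock repressor Nr1d1 had 1878, 1126 and 1164 in WT and 2053, 2220 and 790 in Glut1-TG hearts. WT replicate 1 was thus the highest WT array for both. The part of sampling time in the spread was not tested.

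Of 12 tested genes for chaperones and coregulators of the receptors, 0 rose and 0 fell by limma, 1 had an unadjusted p under 0.05, and the median was -0.17. Med1, a subunit of Mediator that contacts nuclear receptors, had 1522, 1268.5 and 1367 in WT and 1112, 1207 and 1106 in Glut1-TG hearts, without overlap (log2 fold change -0.28, adjusted p = 0.40). Fkbp4, the cochaperone that competes with FKBP51, had a log2 fold change of -0.17, and the chaperone gene Hsp90aa1 had -0.19. Hsp90aa1 was another gene with WT replicate 1 low, at 6236.5 against 10104 and 13520, while its lowest array was Glut1-TG replicate 2, at 5641.
Of 9 genes for activation and supply of steroids, Slc37a4 rose and 8 did not pass. Slc37a4 carries glucose-6-phosphate into the endoplasmic reticulum, where H6pd uses it to make the NADPH that Hsd11b1 needs. It had 768, 666 and 706 in WT and 1688, 2157 and 1723 in Glut1-TG hearts. Slc37a4 rose by 1.37 (log2 scale, SE 0.13, adjusted p = 0.0014), and it passed with any 1 array left out. The call ended with eBayes without an intensity trend (adjusted p = 0.090) and by the methods' t-test after adjustment (0.20). H6pd itself had a log2 fold change of 0.11 (SE 0.15, adjusted p = 0.84). Hsd11b2, which inactivates the hormone, lay under the filter.
Of the other steroid receptors of the family, Esr1 and Pgr were tested and did not pass (log2 fold changes 1.08 and 0.02, SE 0.53 and 0.37). Esr1 had 172.5, 67.1 and 124 in WT and 492, 153 and 181 in Glut1-TG hearts, close to the filter.

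Of 8 tested targets of the mineralocorticoid receptor, 0 passed, with a median log2 fold change of 0.11. Ccn2, a matricellular protein of fibrosis, had 0.41 (adjusted p = 0.61) and Atp1b1, a subunit of the sodium pump, had -0.14 (adjusted p = 0.62). Of 9 tested inflammatory genes that the hormone represses, 0 passed, with a median of 0.15. The chemokine genes Ccl5 and Ccl7 had 0.76 and -0.60 (adjusted p = 0.52 and 0.57).
Of 10 tested relatives of the 9 genes, 0 passed. Ddit4l, the relative of Ddit4 that also restrains mTORC1, had 353, 225 and 179 in WT and 437, 424 and 401 in Glut1-TG hearts. Its arrays did not overlap, and its log2 fold change was 0.80 (SE 0.27, adjusted p = 0.32). WT replicate 1 was its highest WT array, the opposite of Ddit4. Tsc22d2, a relative of Tsc22d3, had 907, 946 and 1026 in WT and 699, 724 and 815 in Glut1-TG hearts, also without overlap (log2 fold change -0.36, adjusted p = 0.33).
None of the lists of p53 targets, ATF4 and CHOP stress genes, hypoxia-induced genes and immediate early genes had a gene past limma over all 6 arrays. With the replicate block 1 immediate early gene rose, and without Glut1-TG replicate 3 1 p53 target fell. Their medians were 0.04, -0.09, -0.19 and -0.23. The p53 target Perp, a desmosomal membrane protein, had the lowest adjusted p of them (0.063), with a log2 fold change of -0.67. Egr3, an immediate early transcription factor, had 257, 88.0 and 78.1 in WT and 843, 420 and 271.5 in Glut1-TG hearts, without overlap (log2 fold change 1.92, SE 0.52, adjusted p = 0.19).

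**Figure D4:**
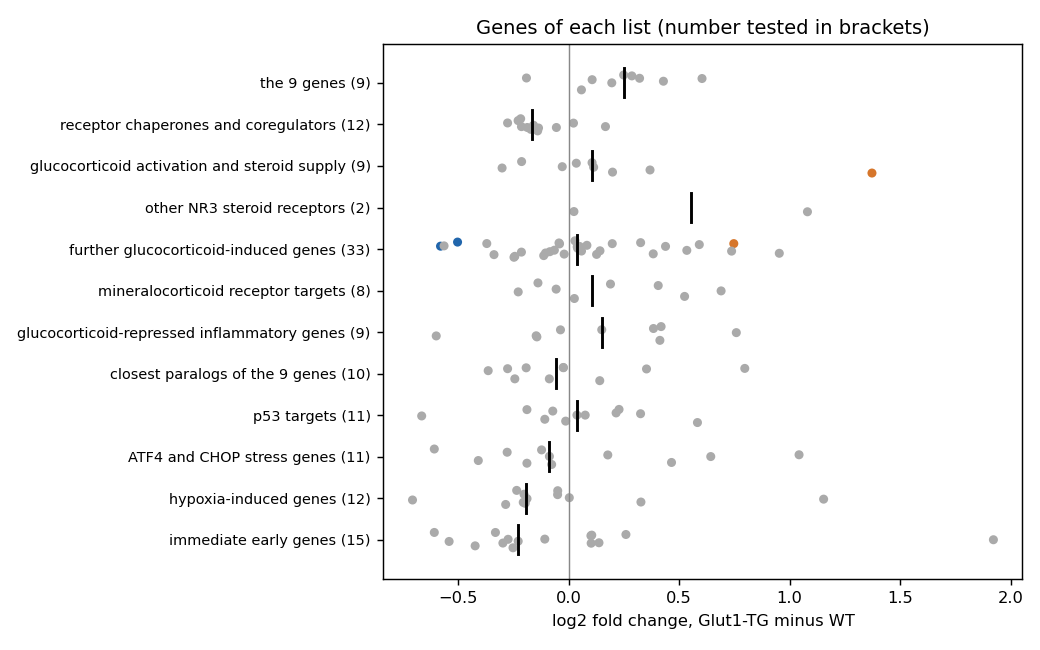
Difference between Glut1-TG and WT hearts in log2 signal (horizontal axis) for each tested gene of 12 lists (rows, number tested in brackets), with a black line at the median of each list. Orange and blue points rose and fell by limma. The lists hold 2 orange points, Slc37a4 and Gadd45b, and 2 blue points, Ptgds and Klf15.

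Markers of other cell types were read as sums and by limma. Of the lists of markers, the 2 genes past limma were the atrial light chains Myl4 and Myl7, which rose. The other 2 tested markers of the atrial list, Nppa and Bmp10, had log2 fold changes below 0. The summed signal of the 5 atrial markers overlapped, at 5453 to 6270 in WT and 5332 to 8799 in Glut1-TG hearts. The summed signal of 8 macrophage markers was 11464 to 13296 in WT and 10898 to 14761 in Glut1-TG hearts, that of 8 fibroblast markers 28050 to 31011 and 25758 to 35319, and that of 8 endothelial markers 15511 to 17378 and 15582 to 16085. The sum of 7 lymphocyte markers did not overlap, at 1202 to 1255 in WT and 1268 to 1846 in Glut1-TG hearts. All 4 of them that were tested had log2 fold changes above 0, and the Glut1-TG arrays of Cd8a and Ms4a1 were all above those of WT. The fat cell markers Adipoq, Lep and Cidec lay under the filter, and the summed signal of 4 such markers was 508 to 548 in WT and 273 to 551 in Glut1-TG hearts. WT replicate 1 had the highest sum of the 6 arrays for cardiomyocytes, 620255, and for smooth muscle cells and pericytes, 29782. The same held for endothelium, 17378, and for mesothelial cells, 850. Its sums of 12844 for macrophages, 31011 for fibroblasts and 544 for fat cells were not the highest of the 6 arrays. Their part in the low targets of that array was not tested.

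The genes whose log2 signal followed Nr3c1 most closely over the 6 arrays were Fbxl7, Gm3363 and 2810408B13Rik, with Pearson r of 0.991, 0.990 and 0.987. For Zbtb16 they were Hcfc1r1, Ift43 and Fam107a, with r of 0.996, 0.996 and 0.995, the last of them one of the 33 induced genes. These are the highest values among 13178 genes over only 6 arrays, and they carry no test. In all, 80 genes had r above 0.9 with Nr3c1 and 153 with Zbtb16.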

How the data were processed

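Total RNA was labelled as biotinylated cRNA and hybridised to 1 array per sample. The deposited values are signal intensities per probe set, made by the authors with GCOS (version not given in the sources used here) and scaled to a common trimmed mean (2% at each end). No raw scans or detection calls were used. Of 45101 probe sets, 64 controls were left out, and 48 values under 1 were set to 1 before log2. Symbols came from the platform annotation, which gave 1 symbol to 34945 probe sets, several to 932 and none to 9160. For a gene with several probe sets, the brightest by mean log2 was used, and the lowest 40% of probe sets by mean (under 115) were left out.

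Groups were compared with limma 3.58.1 in R 4.3.3 (lmFit, eBayes with an intensity trend, no covariates), with p adjusted by Benjamini-Hochberg over 13178 genes. A test of 3 against 3 arrays by permutation cannot go below an exact two-sided p of 0.1 and was not run. The number of arrays limits the precision. The study's text counts the samples of a group as separate hearts, and the labels say nothing of litters or batches, so p-values measure the spread between these samples. Same-numbered arrays had deviations from the group means correlated at 0.08, -0.03 and 0.05, so the numbers were not taken to pair them. The scripts were tested on simulated data.

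The 9 genes and the lists were chosen with earlier results of these data known. The text names the 9 genes, the list genes past limma, up to 4 others of lowest p in a list, and a few picked after their values were seen (Fkbp4, Hsp90aa1, H6pd, Mt2, Angptl4, Pdk4, Per1, the other genes with WT replicate 1 low, the clock genes and Slc2a1), as well as the 3 genes most like Nr3c1 and Zbtb16. Alternatives were quantile normalization, an offset of 50, no filter, a strict filter (60% left out), the mean of probe sets, leaving out each array, a replicate block, eBayes with no trend, the t-test of the methods, the study's thresholds, centring on cardiomyocyte markers and, added after the data were seen, leaving out both arrays numbered 1. Promoter sequences are from RefSeq (GRCm38.p6).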

Additional observations from a re-analysis of the deposited data

How the results depend on the processing

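None of the 9 genes passed in any of the 17 alternatives (lowest adjusted p 0.14, for Zbtb16). Over all genes, 34 rose and 79 fell. The counts were 9 and 37 with the mean of probe sets, 23 and 46 with the replicate block, 1 and 0 for the adjusted t-test of the methods, 2 and 2 for eBayes with no trend, 423 and 349 at the study's thresholds, 93 and 32 after centring on cardiomyocyte markers (which moves the median of all genes to 0.21), and 24 and 37 without both arrays numbered 1. At its thresholds the paper reports more genes each way than were counted here. It names no test for the arrays, and the counts here use 1 probe set per gene after the filter. Leaving out 1 array gave 12 to 32 rises and 30 to 63 falls. The log2 fold change turned for Nr3c1 to 0.073 (mean of probe sets) and 0.0044 (centred). For Hsd11b1 it turned to -0.026 (without Glut1-TG replicate 3, in a range of -0.026 to 0.22 with 1 array left out). For Fkbp5 it turned to -0.23 (mean of probe sets), -0.13 (without WT replicate 1) and -0.16 (without Glut1-TG replicate 2, in a range of -0.16 to 0.31). Centring shifted every gene by the same amount. The mean of probe sets took in those under the filter, 1 of Nr3c1 (log2 fold change 1.12, mean signal 65.9) and 1 of Fkbp5 (-0.73, mean signal 20.4). Why these probe sets differ from the others was not tested. The log2 fold change stayed above 0 in all 17 for Nr3c2, Tsc22d3, Sgk1, Zbtb16, Cdkn1a and Ddit4. Without both arrays numbered 1 it was 0.19 for Ddit4, 0.15 for Cdkn1a, 0.12 for Fkbp5, 0.31 for Tsc22d3, 0.25 for Zbtb16, 0.27 for Sgk1, 0.21 for Hsd11b1, -0.09 for Nr3c1 and 0.59 for Nr3c2, which was 0.19 with all arrays and 0.020 to 0.40 with 1 array left out. Of the 33 further induced genes, 0 rose and 0 fell with the replicate block, with eBayes with no trend and by the adjusted t-test.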
